A study of Homo sapiens with 6 samples.

Results

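The transcripts of the mitochondrial genome were taken as all genes whose symbol starts with MT-, which gave 37 of the 60662 genes with a value. They comprise 13 protein-coding genes, 2 rRNA genes and 22 tRNA genes. RNA came from HCT116 cells, an established human colorectal carcinoma line, grown in McCoy's 5a medium with 10% fetal bovine serum. The cells had been stably transduced with lentiviral plasmids carrying either a nontarget hairpin (shCtrl) or shRNA2 against the long non-coding RNA GMDS-AS1 (GMDS-AS1 knockdown, KD), and the genotype of all cells was labelled WT. Each group had 3 libraries labelled as biological replicates, so both groups carry a lentiviral hairpin, and the KD group rests on 1 hairpin in 1 cell line. Expression was given as TPM, a relative transcript level that corrects for gene length and for the total of the library and keeps no read depth.

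Human mitochondrial DNA is a small circle that is transcribed from both strands into long precursors. In these precursors the rRNAs and most mRNAs are flanked by tRNAs, and excision of the tRNAs by RNase P and ELAC2 releases the other RNAs. The mRNAs encode core subunits of respiratory complexes I, III, IV and V, all other subunits of which come from nuclear genes, and each rRNA is the scaffold of a subunit of the mitochondrial ribosome. Most mitochondrial mRNAs receive a poly-A tail, and in several of them the tail completes the stop codon.

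The genes lie on chromosome M of GRCh38, and 12 of the 13 mRNA genes are on its forward strand in the annotation, with MT-ND6 on the reverse strand. MT-RNR1 (ENSG00000211459, chrM:648-1601) and MT-RNR2 (ENSG00000210082, chrM:1671-3229) encode the small and the large mitochondrial rRNA. MT-RNR1 is separated from MT-RNR2 by the valine tRNA gene MT-TV (chrM:1602-1670), and MT-RNR2 from MT-ND1 (chrM:3307-4262) by the leucine tRNA gene MT-TL1 (chrM:3230-3304). These 2 tRNA genes are shown because the largest unequal change described below falls on their neighbours. The sequences are those of the GENCODE v29 transcripts, 5′ to 3′ on the forward strand, and carry no capitals since no part of them is singled out.
MT-TV: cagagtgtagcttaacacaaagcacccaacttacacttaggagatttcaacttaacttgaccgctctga
MT-TL1: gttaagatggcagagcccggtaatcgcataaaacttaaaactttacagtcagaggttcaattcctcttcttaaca

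Some neighbouring mRNA genes share bases, so that a read from there belongs to both. MT-ATP8 (chrM:8366-8572) and MT-ATP6 (chrM:8527-9207) share 46 bases (chrM:8527-8572), and MT-ND4L (chrM:10470-10766) and MT-ND4 (chrM:10760-12137) share 7 bases (chrM:10760-10766). MT-ATP6 and MT-CO3 (chrM:9207-9990) share only the base at chrM:9207. The windows chrM:8520-8579 and chrM:10753-10773 on the forward strand are shown with the shared stretch in capitals. How the reads from these stretches were divided was not stated.
MT-ATP8/MT-ATP6: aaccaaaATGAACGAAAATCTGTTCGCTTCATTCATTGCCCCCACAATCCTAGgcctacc
MT-ND4L/MT-ND4: tactccaATGCTAAaactaat

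The 3′ ends of the annotated coding sequences differ in whether the genome spells a full stop codon. Of the 13 annotated sequences, 7 ended on a complete stop codon and 6 on a partial one, T or TA. MT-ATP6 was counted as complete, though its last base is also the first of MT-CO3. The last 21 bases of 4 mRNAs that changed relative to the others are shown in the direction of the gene, with the complete or partial stop codon in capitals. They lie at chrM:4242-4262, chrM:7425-7445, chrM:8249-8269 and chrM:15867-15887.
MT-ND1: cagcattccccctcaaaccTA
MT-CO1: cccgtatacataaaatctAGA
MT-CO2: gggcccgtatttaccctaTAG
MT-CYB: acaaaatactcaaatgggccT

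GMDS-AS1, listed under the symbol GMDS-DT, measured 1.66, 2.21 and 1.34 TPM in shCtrl libraries, against 0.88, 0.91 and 0.79 TPM in KD libraries. The groups did not overlap, and the ratio of the KD to the shCtrl mean was 0.495. The limma log2 fold change was -0.41 at adjusted p = 0.0407, on log2(TPM + 1), where the added 1 shrinks changes at such low levels. Over the 6 fits that left out 1 library this fold change ran from -0.52 to -0.30 and passed only without shCtrl replicate 3. Of 8 colorectal epithelial markers, 7 were tested, and 4 were lower and 1 was higher (limma with the trimmed mean scaling described below). On that scale 25.9% of all genes tested were lower and 28.5% higher. The summed level of the 8 markers was 9614 to 10068 TPM in shCtrl and 3785 to 3905 TPM in KD libraries, mainly through KRT8 and KRT18. The epithelial marker VIL1 was near 0, at 0.15 to 0.41 TPM. The summed level of 4 leukocyte markers was 0.23 to 1.92 TPM, with PTPRC at 0 in all 6 libraries, and that of 5 fibroblast markers 10.2 to 15.0 TPM, almost all COL1A1.

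All 22 tRNA genes were listed at 0 in all 6 libraries. They are 59 to 75 bases long, 14 on the forward and 8 on the reverse strand. Values above 0 were rare among genes of that size in general. Of 1302 genes whose longest transcript has at most 75 bases, 2 (0.154%) had a value above 0 in any library, against 15 of 1748 genes (0.858%) with 76 to 100 bases and 30.3% of the 7678 genes with more than 300 and at most 500 bases. The tRNAs could therefore not be compared, and the following values are those of the 15 measured genes, all of which passed the filter on low values.

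The 15 measured genes together held 15.2%, 15.2% and 16.4% of the TPM in the shCtrl libraries and 16.5%, 16.6% and 15.6% in the KD libraries. The groups overlapped, with means of 15.6% ± 0.674 (SD, n = 3) and 16.2% ± 0.554 (SD, n = 3) (two-sided exact permutation test, p = 0.2). With 3 libraries against 3, this test cannot give a p below 0.1. The mRNAs alone held 14.5% ± 0.658 in shCtrl and 15.3% ± 0.538 in KD libraries (SD, n = 3 each), again with overlap (exact permutation test, p = 0.2). In bulk RNA, fewer mitochondrial transcripts per cell and fewer cells that carry them cannot be told apart, and a share of TPM also moves with the RNA of all nuclear genes.

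The order of levels was much the same in both groups. In shCtrl libraries MT-ATP8 was first at 31259 ± 2670 TPM (SD, n = 3), followed by MT-CO2, MT-CO1, MT-CO3, MT-ATP6, MT-ND3, MT-ND4L, MT-RNR2, MT-ND5, MT-ND2, MT-ND4, MT-ND1, MT-RNR1 and MT-CYB, with MT-ND6 last at 2612 ± 189 TPM (SD, n = 3). Among neighbours in this order, only MT-CYB and MT-ND6 overlapped in their shCtrl libraries. In KD libraries MT-ATP8 and MT-CO2 remained first and second, and MT-ND6 remained last. There MT-CO3 and MT-CO1 overlapped, as did MT-RNR1 and MT-ND4. MT-RNR2 moved from rank 8 to rank 10, and MT-RNR1 from rank 13 to rank 11.

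**Figure D1:**
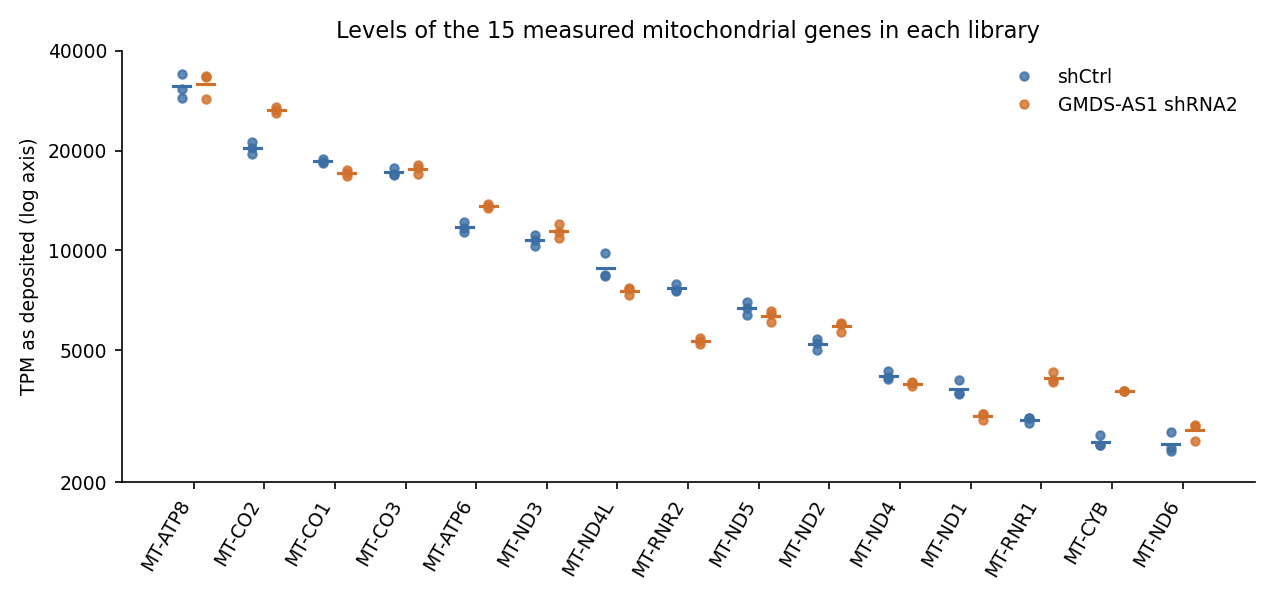
TPM as deposited (log axis) of the 15 measured mitochondrial genes, with 1 point per library (3 per group) and a line at the group mean, in order of the shCtrl mean. MT-RNR2 lies lower and MT-RNR1, MT-CYB and MT-CO2 lie higher in all 3 KD libraries than in any shCtrl library.

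Because the mitochondrial share differed between libraries of the same group, each gene was compared on 3 scales. The trimmed mean scaling sets the bulk of all genes equal, TPM as deposited sets the library total equal, and the mitochondrial scale sets the summed TPM of the 13 mRNAs equal, so that on it the mRNAs can only move against each other. The median log2 fold change of all 16901 genes tested was -0.00 with the trimmed mean scaling, -0.20 with TPM as deposited and -0.26 on the mitochondrial scale. All adjusted p-values below are from limma, Benjamini-Hochberg adjusted over these genes, and fold changes are on the log2(TPM + 1) scale.

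On all 3 scales MT-RNR1, MT-CYB, MT-CO2 and MT-ATP6 were higher and MT-RNR2 was lower in KD cells. Under the trimmed mean scaling, 12 genes among the 15 were higher, 1 (MT-RNR2) was lower, and MT-ND1 and MT-ND4L did not pass. Of all genes tested, 28.5% were called higher and 25.9% lower. The median log2 fold change of the 15 genes was 0.28, and none reached a 2-fold change, which 7.17% of all genes did. The deposited TPM gave 5 higher and 5 lower genes, against 16.3% and 40.3% of all genes. The same 5 and 5 were the genes whose libraries did not overlap between the groups, which held for 18.8% of all genes in the direction of KD higher and for 44.9% in the direction of KD lower. On the mitochondrial scale 4 of the 15 genes were higher and 6 lower, against 11.5% and 42.4% of all genes. With the median of the mRNAs in place of their sum set equal, 8 were higher and MT-RNR2 alone was lower. The share over all genes was not computed for this setting. That median was MT-ND4L in every library, so MT-ND4L itself could not be called there.

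**Figure D2:**
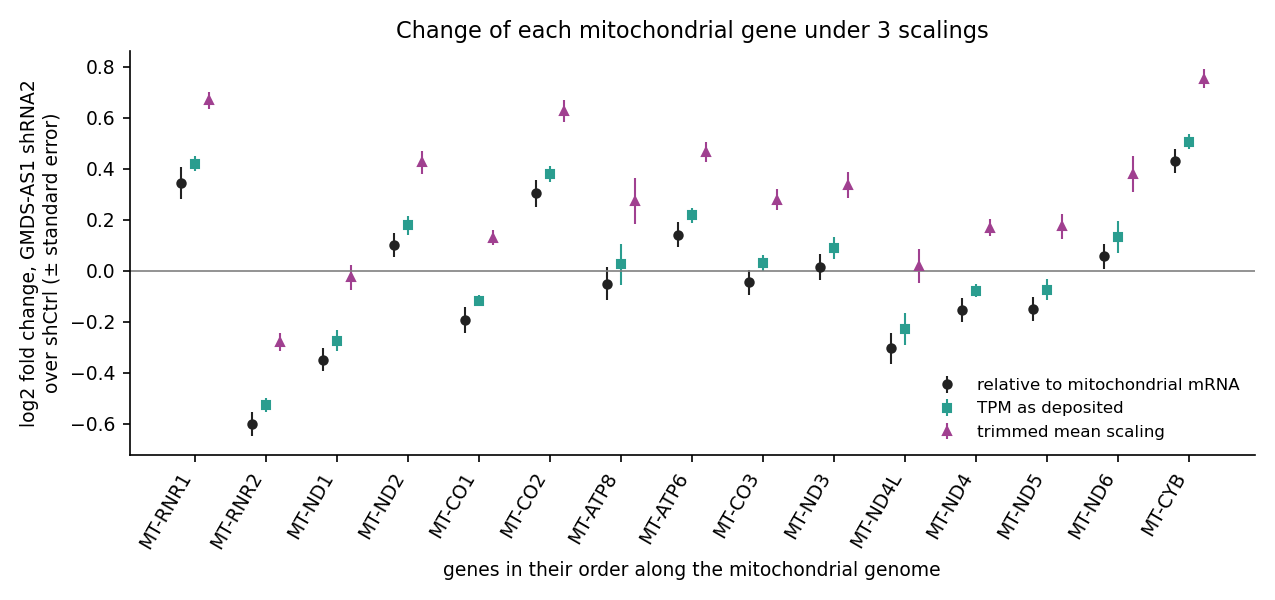
Log2 fold change (KD over shCtrl, limma, 3 libraries per group) of the 15 measured genes in their order along the genome, with bars for the standard error. Each gene keeps its place relative to the others on the 3 scales. MT-RNR1, MT-CO2, MT-ATP6 and MT-CYB lie above 0 and MT-RNR2 below 0 on every scale. MT-CO1, MT-ND4L (0.02), MT-ND4 and MT-ND5 lie above 0 only with the trimmed mean scaling.

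The rRNAs moved in opposite directions. MT-RNR1, the small-subunit rRNA, was at 3116, 3114 and 3010.4 TPM in shCtrl and at 4004, 4290 and 4077 TPM in KD libraries. Every KD library was above every shCtrl library, and the log2 fold change on the mitochondrial scale was 0.34 (standard error 0.063, adjusted p = 0.00226 from limma), against 0.67 with the trimmed mean scaling (adjusted p = 9.1e-06 from limma). MT-RNR2, the large-subunit rRNA, was at 7530, 7588 and 7933 TPM in shCtrl and at 5344, 5441 and 5224 TPM in KD libraries. Every KD library was below every shCtrl library, with a log2 fold change of -0.60 on the mitochondrial scale (standard error 0.047, adjusted p = 3.48e-05 from limma) and -0.28 with the trimmed mean scaling (adjusted p = 0.000673 from limma).

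The ratio of MT-RNR1 to MT-RNR2, which no scaling between libraries can change, was 0.414, 0.410 and 0.379 in shCtrl and 0.749, 0.788 and 0.780 in KD libraries. The KD ratio was 1.93-fold higher and the groups did not overlap, a log2 difference of 0.95 (two-sided exact permutation test, p = 0.1, the smallest p it allows, and 0.167 after Benjamini-Hochberg adjustment over 10 such library values). The rRNAs together held 1.09% ± 0.0156 of the TPM in shCtrl and 0.953% ± 0.0236 in KD libraries (SD, n = 3 each), without overlap (exact permutation test, p = 0.1). Relative to the summed mRNAs, the summed rRNAs went from a ratio of 0.0749 ± 0.00227 to 0.0624 ± 0.00163 (SD, n = 3 each), a log2 difference of -0.26 (exact permutation test, p = 0.1). This sum follows MT-RNR2, the more abundant rRNA. With the median log2 TPM of each class in place of the sum, which gives both rRNAs equal weight, the log2 difference was 0.17, of the opposite sign.

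**Figure D3:**
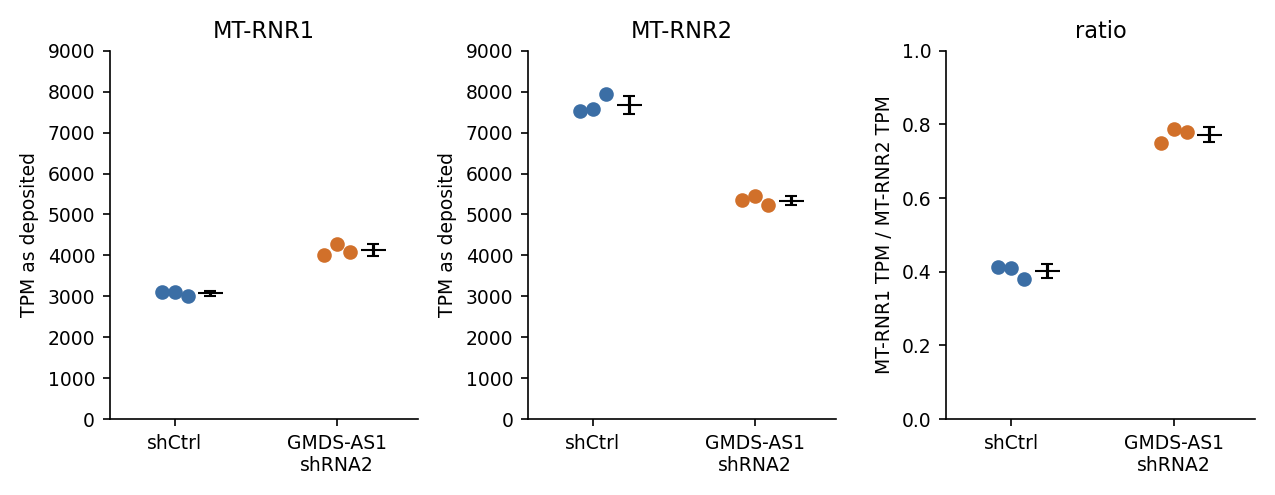
TPM as deposited of MT-RNR1 and MT-RNR2 and their ratio, with 1 point per library and the mean ± SD of 3 libraries beside them. MT-RNR1 was higher and MT-RNR2 lower in all KD libraries, and the ratio was 0.379 to 0.414 in shCtrl and 0.749 to 0.788 in KD libraries.

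The libraries were made from poly-A selected RNA, in which an RNA is recovered according to its tail as well as its amount. Of 12 structured RNAs of nuclear genes that have no poly-A tail, 7 were tested. With the trimmed mean scaling 4 were lower and 0 higher (limma), where 25.9% of all genes were lower. The median log2 fold change of the 7 was -0.58. The 12 summed to 4120 to 6359 TPM in shCtrl and 2913 to 3208 TPM in KD libraries. Most of that sum was RN7SL2, at 2633 to 4292 TPM in shCtrl and 1884 to 2156 TPM in KD libraries. The count of 4 lower RNAs dropped to 1 or 2 in each of the 6 fits that left out 1 library and to 0 without the filter on low values. RN7SL1, an RNA of the signal recognition particle, was at 1118, 1867 and 1809 TPM in shCtrl and at 857, 776 and 801 TPM in KD libraries, and RN7SL2 had a log2 fold change of -0.58 and RN7SK of -0.33. RPPH1, named after its values were seen, had the largest fall of the 4, at -1.11 (adjusted p = 0.0348 from limma). TERC, named after its values were seen, at -0.77 (adjusted p = 0.189 from limma), RMRP, at 0.13 (adjusted p = 0.667 from limma), and RNU1-1, which was at 0 in 3 libraries, were not called, and RNU6ATAC, at 0 in 4 libraries, was not tested. In the same libraries MT-RNR1 was higher and MT-RNR2 lower. The part of poly-A recovery in the rRNA values was not tested.

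Complex III has a single mitochondrial gene, MT-CYB (ENSG00000198727, cytochrome b, chrM:14747-15887), and it had the largest rise of the 15 genes on all 3 scales. MT-CYB was at 2580, 2595 and 2770 TPM in shCtrl and at 3769, 3754 and 3757 TPM in KD libraries. The groups did not overlap and the KD libraries lay close together, with a log2 fold change of 0.43 on the mitochondrial scale (standard error 0.049, adjusted p = 0.000198 from limma) and 0.75 with the trimmed mean scaling (adjusted p = 7.33e-06 from limma). Its share of the mitochondrial mRNA went from 1.84% ± 0.0105 to 2.48% ± 0.0882 (SD, n = 3 each, exact permutation test, p = 0.1). The ratio of MT-CYB to MT-ND5, which precedes it on the forward strand, was 0.396 ± 0.00843 in shCtrl and 0.593 ± 0.0224 in KD libraries (SD, n = 3 each).

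The complex IV genes encode the catalytic core of cytochrome c oxidase and moved apart. MT-CO2 (ENSG00000198712, chrM:7586-8269) was at 20388, 19505 and 21198 TPM in shCtrl and at 26438, 26975 and 26011 TPM in KD libraries. All KD libraries were higher, and the log2 fold change was 0.30 on the mitochondrial scale (standard error 0.052, adjusted p = 0.00162 from limma). This call was lost without the filter on low values, at the same fold change and a standard error of 0.152 (adjusted p = 0.229 from limma). MT-CO1 (chrM:5904-7445) was at 18391, 18429 and 18921 TPM in shCtrl and at 17468, 17152 and 16782 TPM in KD libraries. All KD libraries were lower, with a log2 fold change of -0.19 on the mitochondrial scale (adjusted p = 0.0142 from limma), yet with the trimmed mean scaling the sign turned, to 0.13 (adjusted p = 0.00825 from limma). The call on the mitochondrial scale was lost without shCtrl replicate 2, KD replicate 1 or KD replicate 2, with log2 fold changes of -0.18, -0.20 and -0.18, and the call with the trimmed mean scaling was lost without shCtrl replicate 2, at 0.10. The ratio of MT-CO2 to MT-CO1 does not depend on scaling and went from 1.10 ± 0.0329 to 1.55 ± 0.0298 (SD, n = 3 each), without overlap. MT-CO3 overlapped between the groups, at 17189 ± 447 and 17570 ± 565 TPM (SD, n = 3 each), and passed the test only with the trimmed mean scaling (log2 fold change 0.28). Together the complex IV genes held 39.0% ± 0.812 of the mitochondrial mRNA in shCtrl and 40.4% ± 0.615 in KD libraries (SD, n = 3 each, exact permutation test, p = 0.1, 0.167 after adjustment over the 10 values). The groups were only narrowly apart, at 38.17% to 39.78% in shCtrl and 39.97% to 41.07% in KD libraries.

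Complex I has 7 mitochondrial genes, which encode its membrane arm. On the mitochondrial scale 4 of them were lower and 0 higher, where 42.4% of all genes were lower. These 4 calls, MT-ND1, MT-ND4L, MT-ND4 and MT-ND5, were all lost with the median of the mRNAs set equal, where MT-ND2, MT-ND3 and MT-ND6 were higher. The median was MT-ND4L in every library. This setting therefore compared the other genes with MT-ND4L alone and could not call MT-ND4L. The share of the complex I genes in the mitochondrial mRNA went from 29.36%, 29.03% and 29.42% in shCtrl to 27.11%, 26.97% and 27.48% in KD libraries. The groups did not overlap (two-sided exact permutation test, p = 0.1, 0.167 after adjustment over the 10 values). MT-ND1, which follows MT-RNR2 on the genome, was at 3692, 3719 and 4069 TPM in shCtrl and at 3209, 3198 and 3084 TPM in KD libraries. All KD libraries were lower, with a log2 fold change of -0.35 on the mitochondrial scale (standard error 0.045, adjusted p = 0.000394 from limma), but -0.03 with the trimmed mean scaling (adjusted p = 0.683 from limma) and -0.046 with the median of the mRNAs set equal (adjusted p = 0.652 from limma). On the mitochondrial scale the fall of MT-RNR2 was the larger, so the ratio of MT-ND1 to MT-RNR2 went up, from 0.498 ± 0.0131 to 0.593 ± 0.00677 (SD, n = 3 each).

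MT-ND4L was at 8408, 8390 and 9823 TPM in shCtrl and at 7673, 7352 and 7653 TPM in KD libraries. The groups did not overlap, with shCtrl replicate 3 well above the others. On the mitochondrial scale the log2 fold change was -0.30 (adjusted p = 0.00371 from limma), a call lost without the filter on low values (adjusted p = 0.0924 from limma). With the median set equal MT-ND4L could not be called, since it was that median. With the trimmed mean scaling its log2 fold change was 0.02 (adjusted p = 0.827 from limma). Without shCtrl replicate 3 the latter became a call, at 0.08. MT-ND4 and MT-ND5 had log2 fold changes of -0.15 and -0.15 on the mitochondrial scale, called at adjusted p = 0.0245 and 0.0292 (limma), and of 0.17 and 0.17 with the trimmed mean scaling. On the mitochondrial scale both calls were lost without shCtrl replicate 2, KD replicate 1 or KD replicate 2, that of MT-ND4 also without shCtrl replicate 1 and that of MT-ND5 also without KD replicate 3, with log2 fold changes from -0.17 to -0.14 for MT-ND4 and from -0.16 to -0.13 for MT-ND5 over the 6 fits that left out 1 library. With the trimmed mean scaling MT-ND5 was also lost without shCtrl replicate 1 or 2 or KD replicate 1 or 2, where it was 0.12 to 0.16.

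MT-ND2, MT-ND3 and MT-ND6 were not called on the mitochondrial scale, with log2 fold changes of 0.10, 0.01 and 0.06, and were higher with the trimmed mean scaling, at 0.43, 0.34 and 0.38. MT-ND2 was at 5237, 5011 and 5403 TPM in shCtrl and at 6038, 5988 and 5677 TPM in KD libraries, without overlap. MT-ND6, the mRNA gene of the other strand, was at 2475, 2533 and 2828 TPM in shCtrl and at 2982, 2945 and 2659 TPM in KD libraries, with overlap. Relative to the 12 forward-strand mRNAs its ratio was 0.0185 ± 0.00051 in shCtrl and 0.0192 ± 0.000569 in KD libraries (SD, n = 3 each), with overlap (exact permutation test, p = 0.2). How the counting treated strand was not stated, so reads from the opposite strand of MT-ND6 cannot be told apart from its own.

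The complex V genes encode subunits of the membrane part of ATP synthase and lie on a shared mRNA. MT-ATP6 was at 11703, 11327 and 12173 TPM in shCtrl and at 13647, 13836 and 13436 TPM in KD libraries. All KD libraries were higher, with a log2 fold change of 0.14 on the mitochondrial scale (adjusted p = 0.042 from limma) and 0.46 with the trimmed mean scaling (adjusted p = 7.17e-05 from limma). The call on the mitochondrial scale held only without shCtrl replicate 3 among the 6 fits that left out 1 library, with log2 fold changes from 0.12 to 0.16 over these fits. MT-ATP8 was at 28877, 30757 and 34145 TPM in shCtrl and at 33307, 33632 and 28560 TPM in KD libraries. The groups overlapped widely, with a log2 fold change of -0.05 on the mitochondrial scale (adjusted p = 0.54 from limma) and 0.27 with the trimmed mean scaling (adjusted p = 0.0389 from limma), and the latter was lost without shCtrl replicate 1 or 2 or KD replicate 1 or 2, at 0.19 to 0.24. Complex V genes held 29.9% ± 0.789 and 30.0% ± 0.956 of the mitochondrial mRNA (SD, n = 3 each, exact permutation test, p = 1).

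Genes on a shared mRNA did not have equal levels per length. MT-ATP8 was 2.66 ± 0.175 times MT-ATP6 in shCtrl and 2.33 ± 0.179 times in KD libraries (SD, n = 3 each), and MT-ND4L was 2.12 ± 0.136 and 1.91 ± 0.0653 times MT-ND4. In both pairs the shorter gene, of 207 and 297 bases, had the higher TPM, and in both the ratio was lower in every KD library than in any shCtrl library. The part of gene length and of the shared bases in these ratios was not tested.

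Across the 15 genes, the log2 fold change on the mitochondrial scale showed little relation to features of the genes. Pearson's r was 0.26 with the start position, -0.26 with length, 0.14 with GC content and -0.02 with the shCtrl level. These are descriptions over 15 genes of the same 6 libraries and the same precursors, which are not independent. The kind of stop codon did not separate the directions either. Of the 6 mRNAs with a partial stop codon, 1 was higher, 2 were lower and 3 were not called. Of the 7 with a complete one, 2 were higher, 3 lower and 2 not called. The complete ones include MT-ATP6, which was higher and whose last base is shared with MT-CO3.

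Nuclear copies of mitochondrial DNA can take reads from the genuine genes. Of 415 such pseudogene symbols, 322 were at 0 in every library, 16 were tested, and 4 had a group mean of at least 10 TPM. MTATP6P1 (chr1:633696-634376), which is 98.5% identical to MT-ATP6, was at 991 ± 129 TPM in shCtrl and 1058 ± 19.5 TPM in KD libraries (SD, n = 3 each), 6.82% to 8.38% of the sum of the pair. MTRNR2L1 (chr17:22523111-22524663), 88.6% identical to MT-RNR2, was at 66.5 ± 5.33 TPM in shCtrl and 41.6 ± 0.813 TPM in KD libraries (SD, n = 3 each), with a log2 fold change under the trimmed mean scaling of -0.42 (limma, adjusted p = 0.00169). MTCO1P12 was at 66.7 ± 14.0 and 45.5 ± 1.57 TPM and MTND6P3 at 30.0 ± 4.20 and 28.7 ± 3.90 TPM (SD, n = 3 each). All pseudogenes together summed to 1027 to 1327 TPM per library.

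Nuclear genes that replicate and transcribe mitochondrial DNA moved in both directions. Of 21 genes of mtDNA replication and transcription, 10 were higher and 3 lower with the trimmed mean scaling (limma), with a median log2 fold change of 0.31, against 28.5% and 25.9% of all genes. The deposited TPM gave 8 higher and 6 lower, against 16.3% and 40.3% of all genes. TFAM, which packages mtDNA and activates its promoters, was at 23.08, 20.59 and 22.04 TPM in shCtrl and at 28.18, 25.48 and 26.13 TPM in KD libraries. The groups did not overlap, and limma gave a log2 fold change of 0.51 at adjusted p = 0.000466. TFB2M, the promoter-melting factor, had a log2 fold change of 0.61, POLRMT, the RNA polymerase, had 0.33 and TEFM, the elongation factor, had 0.80. The count of 3 lower genes held in none of the 6 fits that left out 1 library, which gave 2, or 1 without KD replicate 1. POLRMT and TEFM overlapped between the groups in TPM, and POLRMT was not called with TPM as deposited.

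Of 42 genes of mitochondrial RNA processing, modification and stability, 26 were higher and 2 lower (limma), with a median log2 fold change of 0.35, against 28.5% and 25.9% of all genes. The deposited TPM gave 18 higher and 7 lower, against 16.3% and 40.3%. HSD17B10, a dehydrogenase that is also a subunit of mitochondrial RNase P, was at 23.9, 26.2 and 26.1 TPM in shCtrl and at 200.2, 193.5 and 207 TPM in KD libraries, a rise of 3.17 on the log2 scale (limma, adjusted p = 9.55e-08). Its partner TRMT10C, the methyltransferase subunit, had 0.54, while PRORP, the nuclease subunit, was at 4.87, 8.65 and 5.85 TPM in shCtrl and at 3.13, 6.29 and 6.74 TPM in KD libraries, with overlap, and stood at -0.04 (limma, adjusted p = 0.928). ELAC2, which cuts the 3′ ends of tRNAs, had 0.78 and FASTKD5, which acts at mRNA ends that no tRNA marks, had 0.77. The products of the tRNA cuts were not measured, since the tRNAs were at 0.

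LRPPRC and SLIRP, which together stabilise mitochondrial mRNAs, had log2 fold changes of 0.15 and 0.29, and the poly-A polymerase MTPAP had 0.30. All 3 passed with the trimmed mean scaling and none with TPM as deposited, where LRPPRC was at -0.10. The call of LRPPRC was lost without shCtrl replicate 1 or 2 (0.12 and 0.11), and that of MTPAP without shCtrl replicate 2 or 3 or KD replicate 1 or 2 (0.21 to 0.32). Of the RNA decay genes PNPT1 was higher (0.72) and its helicase partner SUPV3L1 was not called (0.08, adjusted p = 0.248 from limma). MRM2, which methylates MT-RNR2, had 0.39 (adjusted p = 0.0421 from limma), a call lost without shCtrl replicate 2 or 3 or KD replicate 2 or 3 (0.27 to 0.43), and GRSF1, an RNA granule protein, was not called (-0.01, adjusted p = 0.819 from limma). Of 10 tested regulators of mitochondrial biogenesis 8 were higher and 0 lower (limma), against 28.5% and 25.9% of all genes. In the deposited TPM 6 of them were higher and 1 lower, against 16.3% and 40.3% of all genes. With the trimmed mean scaling they were led by ESRRA (1.09) and PPARGC1B (1.04), a nuclear receptor and its coactivator.

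The nuclear subunits that assemble with the mitochondrial ones were almost all higher with the trimmed mean scaling (limma). Against 28.5% higher and 25.9% lower over all genes, for complex I 34 of 37 were higher and 1 lower, for complex III 9 of 9 were higher, for complex IV 11 of 12 were higher and 1 lower, and for complex V 18 of 18 were higher. Their median log2 fold changes were 0.58, 0.62, 0.64 and 0.59. Without further scaling of the TPM, 25, 8, 11 and 15 of them were higher and 2, 0, 1 and 1 lower. Over all genes the shares without further scaling were 16.3% higher and 40.3% lower. The largest rises were those of NDUFA5 (1.32), UQCR10 (1.12), COX7B (1.02) and ATP5MC3 (1.24), and the largest falls those of NDUFC2 (-0.34) and NDUFA4 (-1.35).

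On the same scale the 13 mitochondrial mRNAs had a median log2 fold change of 0.28 and ran from -0.03 to 0.75. In complexes I, IV and V all 12 mitochondrial mRNAs lay below the median of the nuclear subunits, with MT-CO2 just below that of complex IV, and MT-CYB lay above that of complex III. These are medians set side by side, and the difference between the sets was not tested. Complex II, which has no mitochondrial gene, had 3 of 4 subunits higher, against 28.5% of all genes, and a median of 0.64, with SDHB at 1.10.

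**Figure D4:**
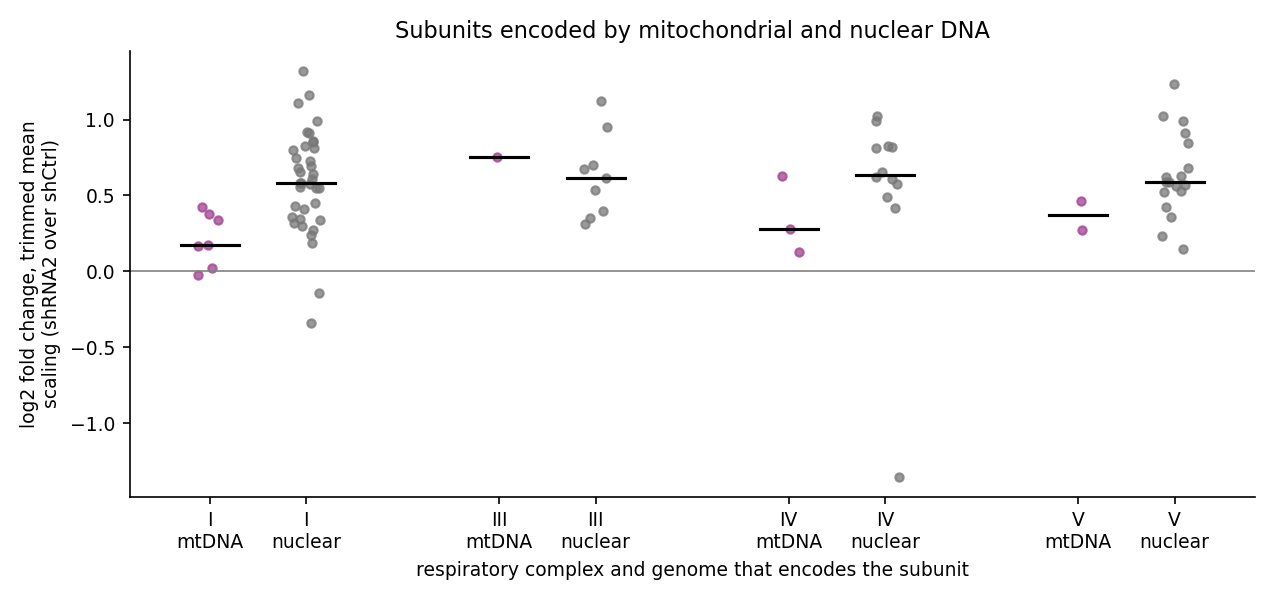
Log2 fold change with the trimmed mean scaling (KD over shCtrl, limma, 3 libraries per group) of respiratory complex subunits encoded by mitochondrial DNA (13 points in all) and by nuclear genes (1 point per tested gene), with a line at the median of each set. The nuclear medians lie between 0.58 and 0.64, and the mitochondrial mRNAs run from -0.03 (MT-ND1) to 0.75 (MT-CYB).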

How the data were processed

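Poly-A selected RNA of 6 HCT116 cultures was sequenced in paired reads with a TruSeq RNA kit. The submitters' processing notes name Trimmomatic 0.27, TopHat2 2.1.1 and GRCh38.p13, and the study's methods name Cufflinks and RSEM. The annotation release is not given in the sources used here. The authors deposited TPM per gene and library, summing to 991058 to 992992 over the genes read, so depth is unknown and no counting error could be given. A further 2 genes had broken lines and are not reported here.

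The 16901 genes that reached 0.5 TPM in 3 or more libraries were tested with limma 3.58.1 in R 4.3.3 on log2(TPM + 1), with a variance trend, no replicate block and a threshold of 0.05 on the adjusted p. The trimmed mean scaling trimmed 30% of log ratios and 5% of means. Library values were compared by two-sided exact permutation tests. Scripts were tested on simulated data. GENCODE 29 on GRCh38 held 58394 of the identifiers, with all 37 members, and gave positions and sequences. P-values measure the spread between these libraries. The members, lists and named genes were chosen with earlier results of these data known. The named genes were all members, the core transcription and RNA processing genes, other genes of those lists and of the regulators past 2-fold, the extremes of each subunit list, and pseudogenes and structured RNAs of at least 10 TPM in a group.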

Additional observations from a re-analysis of the deposited data

How the results depend on the processing

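With the trimmed mean scaling 12 genes were higher and 1 lower. Without the filter on low values, or without the variance trend, 9 were higher and 1 lower. In both settings MT-CO1, MT-ATP8 and MT-ND5 were no longer called. TPM as deposited gave 5 and 5, and TPM rescaled over nuclear genes alone gave 5 and 4. These scalings reversed MT-CO1 (-0.12 and -0.11), MT-ND4L (-0.23 and -0.22), MT-ND4 (-0.079 and -0.070) and MT-ND5 (-0.073 and -0.065), and upper-quartile scaling reversed MT-ND1 (0.057). Leaving out 1 library gave 9 to 13 higher and 1 to 1 lower genes, with MT-ND1 from -0.075 to 0.0073 and MT-ND4L from -0.045 to 0.084.

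On the mitochondrial scale 4 genes were higher and 6 lower. Without the filter these were 2 and 2, with MT-CO2, MT-ATP6, MT-CO1, MT-ND4L, MT-ND4 and MT-ND5 no longer called, without the variance trend 3 were lower, and with the median of the mRNAs set equal in place of their sum 8 were higher and 1 lower, with MT-CO1 at 0.11, MT-ATP8 at 0.25, MT-CO3 at 0.26, MT-ND4 at 0.15 and MT-ND5 at 0.15, and the calls of MT-ND1 (-0.046) and MT-ND4L lost. That median is the value of 1 gene, MT-ND4L in every library, so the lost call of MT-ND4L was fixed by the setting. Leaving out 1 library gave 3 to 4 higher and 3 to 6 lower genes, the 3 without shCtrl replicate 2, KD replicate 1 or KD replicate 2, with MT-ND3 from -0.0050 to 0.035. A length-weighted sum or mean log2 TPM, both chosen after seeing the data, gave 5 or 4 higher and 6 lower. Class medians gave 0.17 for the log2 rRNA to mRNA difference and 0.20 for that of MT-ND6 to the other mRNAs. With 1 library left out, the KD minus shCtrl difference in the complex V share ran from -0.31 to 0.66 percentage points. With all libraries it was 0.11, so its sign was not stable. MT-RNR1, MT-RNR2 and MT-CYB kept direction and call under all 14 alternatives run on each of these 2 scales. Beyond what is said here, the cause of these moves was not tested.

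The replicate block gave 10 higher and 1 lower with the trimmed mean scaling, where MT-ATP8 and MT-ND5 were no longer called. On the mitochondrial scale it gave 3 higher and 3 lower. Shares over all genes were computed only for the main fits on the 3 scales, not for the alternatives in this section. Whether the counts of members moved with those of all genes was not tested. Deviations of same-numbered libraries correlated at 0.029, -0.0376 and 0.0142, so the numbers were not taken as pairs. Medians for the share of a complex or for MT-RNR1 to MT-RNR2, and a share without tRNA genes, were not run, the latter because these are at 0.

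For the nuclear genes the alternatives were chosen after seeing the data. With TPM as deposited 6 genes of mtDNA replication and transcription, 7 of RNA processing, 1 regulator, 2, 1 and 1 subunits of complexes I, V and II and 2 pseudogenes were lower, and 0 pseudogenes were higher. TPM over nuclear genes alone gave the same counts except 6 for RNA processing. These 2 scalings reversed LRPPRC (-0.096 and -0.088), RMRP (-0.12 and -0.11), SUPV3L1 (-0.16 and -0.15) and MTND6P3 (-0.059 and -0.051), upper-quartile scaling reversed GRSF1 (0.072) and PRORP (0.035), and a pseudocount of 0.1 reversed RNU1-1 (-0.71). Lower structured RNAs were 0 without the filter and 2 without the variance trend or with upper-quartile scaling. Without the filter 1 replication and transcription gene and 2 pseudogenes were lower and 0 pseudogenes higher. The replicate block gave 2 lower complex I subunits. Leaving out 1 library gave 1 to 2 lower replication and transcription genes, 1 to 2 lower complex I and 0 to 1 lower complex II subunits, 1 to 2 lower structured RNAs, and 0 to 1 higher and 1 to 2 lower pseudogenes, with GRSF1 from -0.052 to 0.0035, PRORP from -0.21 to 0.26, RMRP from -0.096 to 0.31 and RNU1-1 from -0.56 to 1.07.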
